A study of Homo sapiens with 6 samples.

Results

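The genes described here code for proteins of the centromere, the kinetochore and the spindle assembly checkpoint. They were chosen by name, with earlier results of these data known. The list has 43 symbols, each found as 1 row among the 19491 rows (19429 distinct names) of the expression tables. The study was made in PC-3 cells, an established prostate cancer cell line, and asked how blocking ASCT2 (SLC1A5), a transporter that carries glutamine into the cell, changes gene expression. All cells were grown in medium with serum and pyruvate. The control cells were left untreated, the other 2 groups received 1 mM GPNA (l-γ-glutamyl-p-nitroanilide) or 10 mM BenSer (benzylserine), and RNA was taken after 48 h. Both compounds are competitive ASCT2 inhibitors that can also act on other amino acid transporters, and their doses differ, so values with GPNA and with BenSer are given side by side. The tables hold 4 columns per group, of which the 2 that match a labelled library were used. Nothing in the labels says that the 2 libraries of a group came from separate cultures.

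The kinetochore is the protein structure that joins a chromosome to the microtubules of the mitotic spindle. Its inner layer sits on centromeric chromatin marked by the histone variant CENP-A, its outer layer holds the microtubule, and the checkpoint proteins on it hold back anaphase until every chromosome is attached. Many of these genes are transcribed mainly late in the cell cycle, so in proliferating tumour cells their summed RNA follows both the share of cells near mitosis and the RNA in each such cell. A bulk sample cannot tell fewer cells of that kind from less RNA per cell.

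Each group had 2 labelled libraries, each 1 column of the tables, with 23077986 to 32178154 reads per library, and 51.6% to 52.7% of them were on listed genes. The columns of a group agreed close to read sampling (chi-square per degree of freedom 1.04 to 1.06, against 8.59 to 35.2 between groups). Each group was thus treated as a single sample, and no p-value is given for an effect of a treatment. All 43 genes passed the filter of a mean of 5 reads in either group. Differences are in log2(CPM + 1) of the group means, where CPM is reads per 1000000 reads of the library. Percentages of the control are ratios of CPM with an exact 95% interval on the merged reads of both columns, which covers counting error only. Of the 43 genes, the columns differed by more than that interval for 1 gene in the control (MIS12), for 4 with GPNA (CENPW, NSL1, BIRC5 and PLK1) and for 1 with BenSer (PLK1). All 5 epithelial markers looked up (KRT8, KRT18, KRT19, EPCAM and CDH1) were present, with a summed CPM of 1252 in untreated cells, 1246 after GPNA and 1366 after BenSer. No immune or endothelial marker looked up was listed. The stromal markers COL1A1 and LUM summed to 6.28, 4.14 and 5.13 CPM, and COL1A2 and DCN were not listed. The part of these shifts in the results below was not tested.

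The promoters of 6 of the genes are shown first, searched for 2 short sequences. The cell cycle genes homology region (CHR, searched as TTTGAA and TTCGAA) is a known mark of genes expressed late in the cell cycle. The CCAAT box (CCAAT) is not particular to such genes and was found in 41.2% of all tested genes with a RefSeq promoter entry. CDCA8, CDC20, PLK1 and ZWINT were lower with BenSer and hold both, CENPC holds both and stood close to its control level, and CENPT holds neither and also stood close to its control level. These 6 were picked with their values and motifs known and do not stand for the rest. Of 13 genes with neither motif, 3 were at least 1.5-fold lower with BenSer: NUF2 (-0.74), SKA3 (-0.62) and CENPE (-0.61). Each line gives the 250 bases before the gene's start in RefSeq (GRCh38.p14), 5′ to 3′ on the gene's strand, with matches on either strand in capitals, so that a match on the other strand reads as TTCAAA or ATTGG. The windows lie at chr1:37692266-37692515 (CDCA8, plus strand), chr1:43358731-43358980 (CDC20, plus strand), chr16:23678639-23678888 (PLK1, plus strand), chr10:56361260-56361509 (ZWINT, minus strand, first of 2 listed starts), chr4:67545504-67545753 (CENPC, minus strand) and chr16:67847694-67847943 (CENPT, minus strand).
CDCA8: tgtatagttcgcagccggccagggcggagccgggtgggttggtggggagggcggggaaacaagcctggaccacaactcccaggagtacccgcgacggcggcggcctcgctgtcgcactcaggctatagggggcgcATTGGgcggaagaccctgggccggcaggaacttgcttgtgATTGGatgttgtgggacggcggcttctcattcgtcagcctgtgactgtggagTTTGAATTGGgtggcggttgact
CDC20: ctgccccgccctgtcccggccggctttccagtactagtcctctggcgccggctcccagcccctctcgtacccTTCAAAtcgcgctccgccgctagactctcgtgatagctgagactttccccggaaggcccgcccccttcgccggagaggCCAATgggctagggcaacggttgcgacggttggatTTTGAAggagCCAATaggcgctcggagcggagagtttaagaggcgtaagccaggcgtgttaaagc
PLK1: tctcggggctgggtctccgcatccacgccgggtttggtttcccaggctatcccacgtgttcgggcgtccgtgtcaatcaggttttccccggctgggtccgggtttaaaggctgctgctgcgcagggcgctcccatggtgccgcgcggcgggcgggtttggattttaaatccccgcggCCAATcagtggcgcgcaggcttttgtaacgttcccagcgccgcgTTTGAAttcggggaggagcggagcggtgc
ZWINT: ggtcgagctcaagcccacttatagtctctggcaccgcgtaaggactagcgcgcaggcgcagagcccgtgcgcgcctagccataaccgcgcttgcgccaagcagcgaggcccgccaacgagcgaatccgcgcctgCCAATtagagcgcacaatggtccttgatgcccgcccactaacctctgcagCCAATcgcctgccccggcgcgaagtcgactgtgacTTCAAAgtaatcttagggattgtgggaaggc
CENPC: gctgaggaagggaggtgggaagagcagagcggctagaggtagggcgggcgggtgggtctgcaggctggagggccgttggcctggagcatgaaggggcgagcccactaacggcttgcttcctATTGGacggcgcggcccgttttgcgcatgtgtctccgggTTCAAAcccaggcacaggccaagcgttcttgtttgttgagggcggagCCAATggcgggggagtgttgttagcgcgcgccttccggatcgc
CENPT: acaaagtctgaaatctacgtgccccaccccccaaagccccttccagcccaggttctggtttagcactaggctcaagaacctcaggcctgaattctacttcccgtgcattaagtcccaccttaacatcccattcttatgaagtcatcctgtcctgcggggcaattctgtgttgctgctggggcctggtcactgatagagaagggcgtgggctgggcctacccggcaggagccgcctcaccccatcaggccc

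Counted back from the start, the CHR of CDCA8 covered bases 23 to 18 and shared 1 base with a CCAAT box at bases 18 to 14. CDC20 held a CHR at bases 65 to 60 and another at bases 178 to 173, PLK1 held a CHR at bases 29 to 24, and ZWINT held one at bases 31 to 26. The CHR of CENPC lay at bases 90 to 85, between those of CDC20. These matches describe letters in a window and are not measured binding sites.

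With BenSer, all 43 genes had a lower mean CPM than in the control, whereas 55.4% of the 18976 genes tested did. Their median difference was -0.49 on the log2(CPM + 1) scale, against -0.03 over all genes tested, and the quartiles of the 43 were -0.62 and -0.34. The differences ran from -0.87 for CDCA8, a subunit of the chromosomal passenger complex, to -0.05 for CENPC, an inner kinetochore protein. As a share of the control CPM, the median gene stood at 68.9%. The summed CPM of the 43 genes was 2037 and 2044 in the control columns, 1862 and 1856 with GPNA, and 1395 and 1403 with BenSer.

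In all, 14 of the 43 genes were at least 1.5-fold lower with BenSer on the log2(CPM + 1) scale and none was 1.5-fold higher, where 1.58% of all genes tested were 1.5-fold lower. The 14 were CDCA8, MAD2L1, AURKB, NUF2, SKA2, ZWINT, CENPM, BIRC5, CDC20, PLK1, BUB1B, SKA3, CENPE and SPC24. With library sizes scaled by TMM, 10 of the 43 were 1.5-fold lower, and the split over all genes moved from 300 lower and 371 higher to 214 lower and 432 higher. All 43 stayed below the control under either scaling tried. KNTC1 (-0.58), NDC80 (-0.58) and TTK (-0.57) lay just short of the threshold on this scale. As CPM ratios, these genes and CENPH (65.7% of the control) were 1.5-fold lower as well. The counting interval lay below the control for 39 genes (25.8% of all genes tested) and included it for CENPC, CENPP, CENPQ and CENPT. Both BenSer columns were below both control columns for 42 genes, all except CENPQ, where 37.5% of all genes had that pattern. This interval is narrower for genes with many reads, so these shares depend on level as well as on the size of a difference. With the columns entered as 2 samples per group, edgeR's quasi-likelihood test, which compares these libraries and not the treatments, called 38 of the 43 lower at an adjusted p under 0.05, against 17.6% of all genes.

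With GPNA, the same genes were closer to the control. The median difference was -0.11, against -0.03 over 18828 genes tested, and 34 of the 43 lay below 0 (32 with TMM or median-of-ratios scaling), as did 56.7% of all genes tested. None was 1.5-fold lower (0.0637% of all genes were), and the range ran from -0.35 for CDC20 to 0.18 for CENPP. The counting interval lay below the control for 24 genes (20.1% of all genes), above it for SGOL2 alone (9.78% of all genes), and included it for 18. The columns were all lower than both control columns for 28 genes (34.4% of all genes) and all higher for 3, CENPI, CENPP and SGOL2 (22.4% of all genes). edgeR's test between the libraries called 13 lower (8.25% of all genes) and 1 higher (6.90% of all genes).

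**Figure D1:**
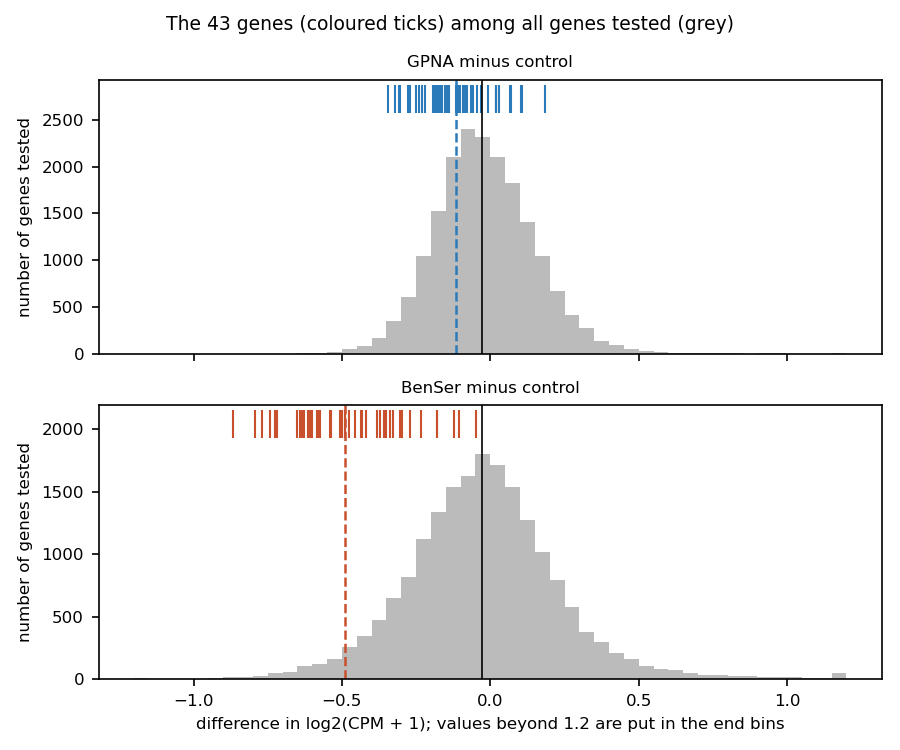
Differences of the 43 genes (coloured ticks) and of all genes tested (grey bars, number of genes per bin) on the log2(CPM + 1) scale, with GPNA above and BenSer below, the dashed line at the median of the 43 genes and the solid line at the median of all genes. With BenSer the median of the 43 genes is -0.49 and each tick lies below 0, whereas with GPNA the median is -0.11 and the ticks spread over both sides of 0.

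At the centromere itself, 2 genes code for proteins on the DNA. CENPA, the histone variant that marks the centromere, had 13.7 and 13.04 CPM in the control columns, 13.1 and 11.9 in those with GPNA, and 8.76 and 9.74 in those with BenSer. Both BenSer columns of CENPA were below the others, at 69.1% of the control (interval 61.6 to 77.4), and those with GPNA overlapped the control. CENPA shares exon positions with SLC35F6 on the same strand, so reads of the pair could be mixed. CENPB, which binds a short motif in centromeric satellite DNA, had 85.1 and 85.7 CPM in the control columns, 71.0 and 69.9 in those with GPNA, and 71.2 and 70.1 in those with BenSer. The 4 treated columns of CENPB lay together below the control, at 82.5% (interval 78.9 to 86.3) after GPNA and 82.7% (79.3 to 86.4) after BenSer.

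The inner kinetochore (12 genes of the constitutive centromere-associated network, which stays on the centromere through the cell cycle) was lower with BenSer by a median of -0.40, with 1 gene 1.5-fold lower and 8 with an interval below the control. With GPNA its median was -0.06, and 3 of the 12 had an interval below the control, a share near the 20.1% of all genes. Many of the 12 have few CPM, and the log2(CPM + 1) scale makes their differences smaller. As a CPM ratio, the median of the 12 with BenSer was 73.6% of the control. CENPC, which ties CENP-A nucleosomes to the outer kinetochore, had 19.7 and 19.4 CPM in the control columns, 19.6 and 20.04 in those with GPNA, and 18.4 and 19.3 in those with BenSer. Its 6 columns lay within a narrow band, at 96.5% of the control with BenSer (interval 88.5 to 105). CENPT, a histone-fold protein that makes a second link to the outer layer, had 9.90 and 10.2 CPM in the control columns, 8.84 and 9.63 in those with GPNA, and 9.17 and 9.36 in those with BenSer. Its interval with BenSer was 81.6 to 104, and its histone-fold partner CENPW stood at 70.3% (58.9 to 83.8).

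CENPM had the lowest share of the control of all 43 genes. It belongs with CENPH, CENPI and CENPK to 1 assembly, and its CPM was 4.48 and 5.29 in the control columns, 3.64 and 3.89 in those with GPNA, and 2.64 and 2.50 in those with BenSer. That is 52.7% of the control with BenSer, with an interval of 42.9 to 64.7, widened by its low read number, which takes in the 53.7% of CDCA8. The other members of that assembly lay closer together with BenSer, CENPI at 69.6%, CENPK at 67.2% and CENPH at 65.7%. With GPNA they stood at 105%, 96.1% and 101%, and CENPM at 77.2% (63.3 to 93.9). Summed over the 4 genes, the CPM was 66.2% of the control with BenSer and 99.3% with GPNA.

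CENPN, which recognises the CENP-A nucleosome, and its partner CENPL had 71.2% and 77.9% of the control with BenSer and 87.2% and 94.3% with GPNA. CENPO, CENPP and CENPQ, subunits of a further assembly, had 76.0%, 86.0% and 89.99% with BenSer. CENPO was lower with GPNA as well (81.5%, interval 73.9 to 89.9), whereas CENPP was at 116% with GPNA (97.9 to 138) and CENPQ at 101%. CENPP and CENPQ had only 5.07 to 5.55 and 3.94 to 4.48 CPM in the control, and CENPP had 0.57 CPM per kilobase of exon, the lowest level per length of the 43 genes.

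The outer kinetochore (11 genes) was lower with BenSer by a median of -0.58, with 5 genes 1.5-fold lower and all 11 intervals below the control. As a CPM ratio, the median of the 11 with BenSer was 66.0% of the control. With GPNA the median difference was -0.15 and 7 intervals were below the control. The NDC80 complex is the main microtubule-binding part. NUF2, which with NDC80 makes its microtubule-binding end, had 29.0 and 29.5 CPM in the control columns, 26.0 and 24.9 in those with GPNA, and 17.5 and 16.7 in those with BenSer. The 3 groups did not overlap, and NUF2 was at 58.4% of the control with BenSer (53.8 to 63.2). NDC80 had 35.4 and 36.9 CPM in the control columns, 32.1 and 32.3 in those with GPNA, and 23.4 and 24.4 in those with BenSer, again with no overlap. SPC24, which with SPC25 anchors the complex, had 26.2 and 27.0 CPM in the control columns, 23.3 and 22.0 in those with GPNA, and 17.2 in both BenSer columns. SPC25 was at 68.3% with BenSer and at 109% with GPNA (94.4 to 125). The summed CPM of the 4 subunits was 63.6% of the control with BenSer (61.0 to 66.3) and 89.0% with GPNA.

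DSN1, MIS12 and NSL1, of the MIS12 complex that carries the NDC80 complex, were lower by less. With BenSer they stood at 79.9%, 86.8% and 84.6% of the control, and with GPNA at 89.5%, 102% and 96.0%. Their summed CPM was 83.4% of the control with BenSer (79.2 to 87.7), an interval that does not reach that of the NDC80 complex. The values of MIS12 rest on control columns that differed, at 9.69 and 7.84 CPM, and its difference with BenSer was between -0.31 and -0.04 when 1 column was left out.

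ZWINT, a scaffold protein that helps to bring the checkpoint's corona proteins to the outer kinetochore, had the highest level per length of the 43 genes, with 84.5 CPM per kilobase of exon in the control. Its CPM was 201 in both control columns, 181 and 183 with GPNA, and 121 in both BenSer columns. The groups were far apart compared with the columns, and ZWINT stood at 60.3% of the control with BenSer (58.5 to 62.1) and 90.7% with GPNA (88.1 to 93.3). The SKA complex follows the ends of microtubules. Its subunit SKA2 had 86.0 and 85.5 CPM in the control columns, 73.5 and 72.4 in those with GPNA, and 51.6 and 51.2 in those with BenSer, or 59.9% (57.2 to 62.8). SKA3 was at 64.4% and SKA1 at 77.7% with BenSer, so that the intervals of SKA2 and SKA1 (69.9 to 86.3) did not meet.

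**Figure D2:**
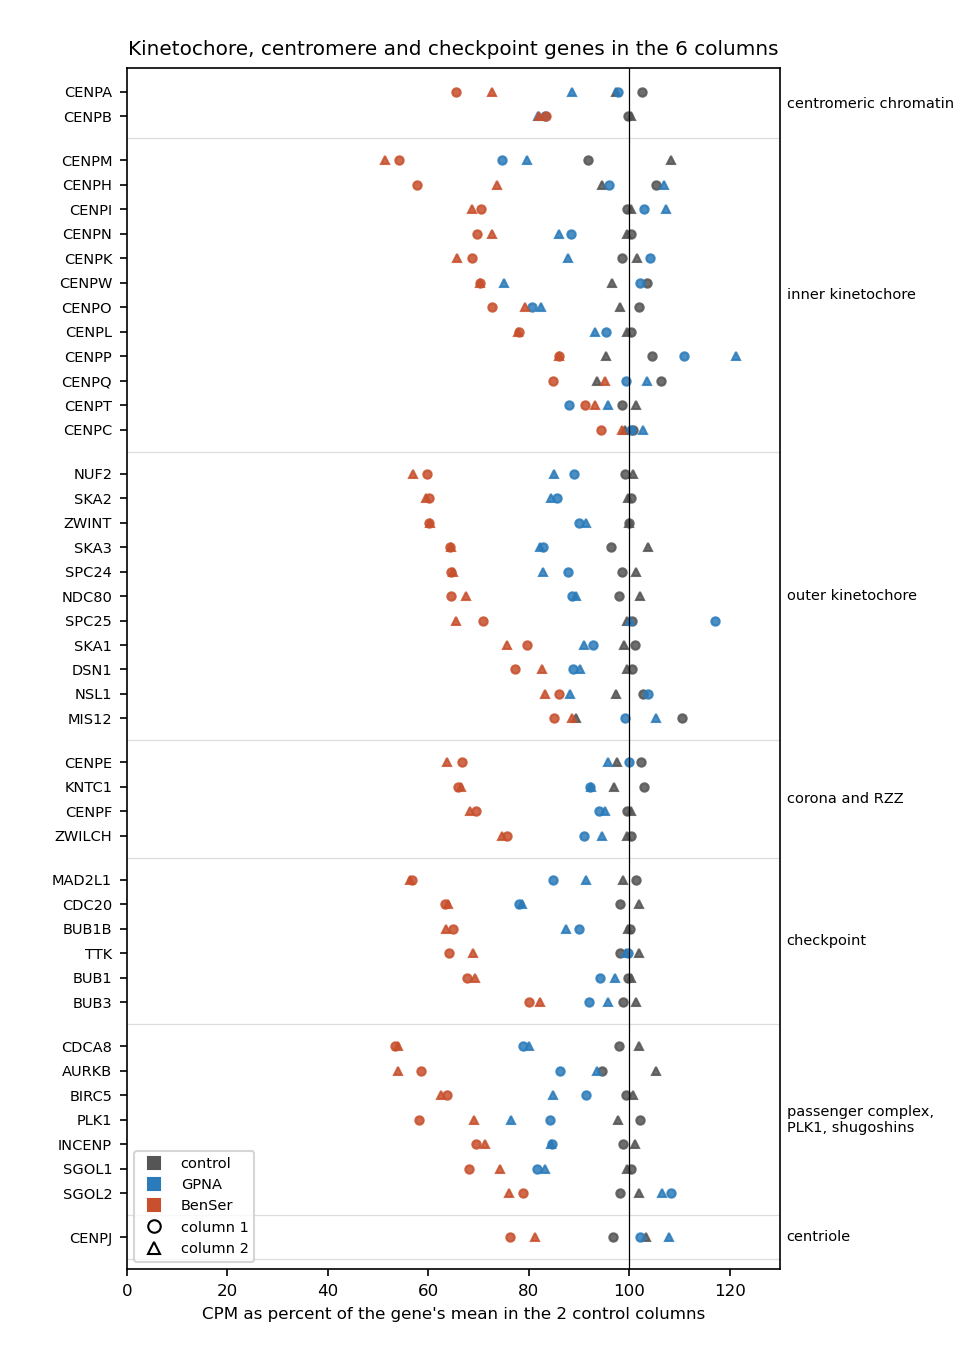
CPM of each of the 43 genes in each of the 6 columns, as percent of the gene's mean in the 2 control columns (horizontal axis), with circles for column 1, triangles for column 2, and genes grouped by role and ordered by the BenSer value. For 41 genes the BenSer mean is the lowest of the 3 groups, and the columns of a group lie farthest apart for CENPW with GPNA (5.78 and 4.24 CPM) and for MIS12 in the control (9.69 and 7.84 CPM).

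The corona and the RZZ complex, outermost at an unattached kinetochore, were lower with BenSer by a median of -0.56 over 4 genes, all 4 with an interval below the control, and by -0.09 with GPNA. CENPE, a kinesin that moves chromosomes to the spindle's middle, had 90.5 and 86.4 CPM in the control columns, 88.4 and 84.8 in those with GPNA, and 59.1 and 56.4 in those with BenSer. It was at 65.3% with BenSer and at 97.9% with GPNA, where its interval (93.8 to 102) included the control. CENPF, a large corona protein, had the highest CPM of the 43, with 312 and 314 in the control columns, 294 and 298 in those with GPNA, and 217 and 214 in those with BenSer. Its interval with BenSer, 67.3% to 70.5%, was the narrowest of the 43. KNTC1 and ZWILCH, subunits of the RZZ complex that recruits dynein and checkpoint proteins, were at 66.2% and 75.2% with BenSer and at 92.3% and 92.8% with GPNA.

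The 6 checkpoint genes were lower with BenSer by a median of -0.60, with 3 genes 1.5-fold lower and all 6 intervals below the control. With GPNA the median was -0.13 and 5 intervals were below the control. MAD2L1 codes for MAD2, the inhibitor that binds CDC20. It had 36.0 and 35.1 CPM in the control columns, 30.1 and 32.5 in those with GPNA, and 20.1 and 20 in those with BenSer, with no overlap between groups and 56.5% of the control with BenSer (52.5 to 60.8). CDC20, the activator of the anaphase-promoting complex that the checkpoint holds back, had 75.6 and 78.6 CPM in the control columns, 60.2 and 60.7 in those with GPNA, and 48.8 and 49.3 in those with BenSer. CDC20 thus stood at 78.4% with GPNA (74.7 to 82.3), the lowest log2 difference of the 43 genes with that compound, and at 63.6% with BenSer (60.6 to 66.7).

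TTK, the kinase that starts checkpoint signalling, had an interval below the control with BenSer only, as did CENPE, CENPH, CENPI and SPC25 among others. TTK had 47.5 and 49.4 CPM in the control columns, 48.3 and 48.1 in those with GPNA, and 31.0 and 33.4 in those with BenSer. The GPNA columns of TTK lay between the control columns, at 99.5% (93.9 to 105), while BenSer gave 66.5% (62.6 to 70.6). BUB1, a checkpoint kinase, had 108 CPM in both control columns, 102 and 105 with GPNA, and 73.1 and 74.8 with BenSer. BUB1B, which codes for BUBR1 of the complex that inhibits CDC20, was at 64.2% with BenSer and 88.7% with GPNA, and its reads could be mixed with those of PAK6 and the BUB1B-PAK6 readthrough gene on the same strand. BUB3, the adaptor that brings BUB1 and BUBR1 to the kinetochore, had 101 and 103 CPM in the control columns, 93.9 and 97.6 in those with GPNA, and 81.7 and 83.8 in those with BenSer. At 81.2% of the control with BenSer (78.0 to 84.4), BUB3 was the member of this group closest to its control level.

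**Figure D3:**
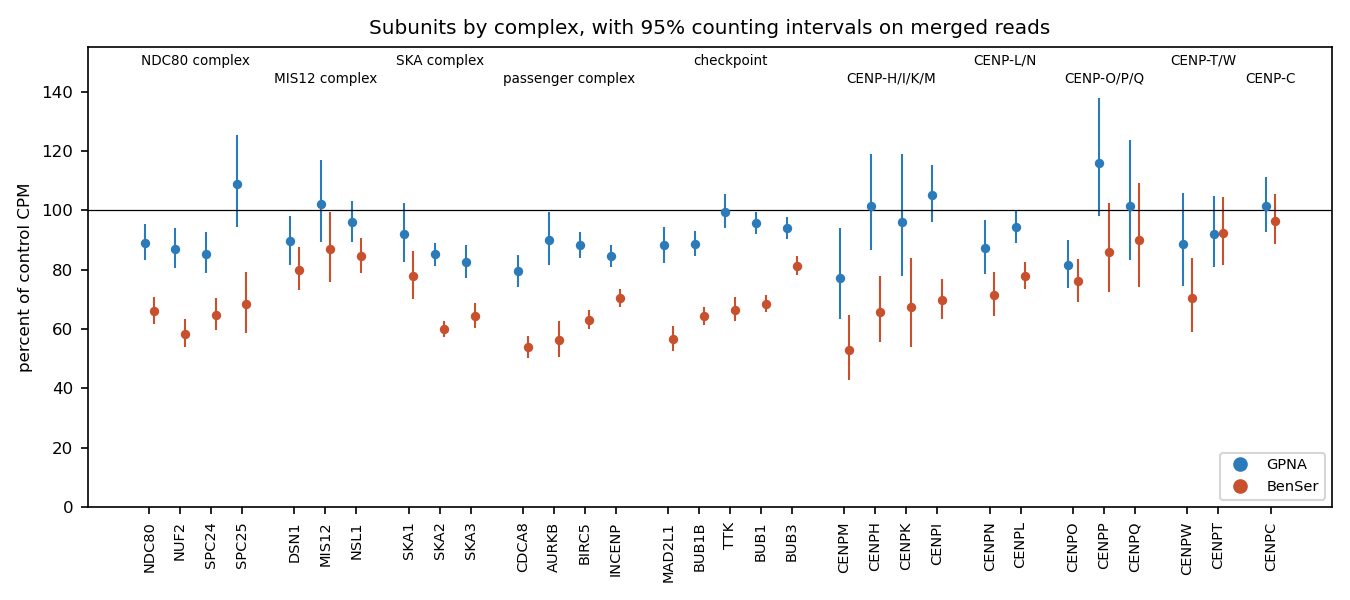
Percent of the control CPM for subunits of the NDC80, MIS12, SKA, passenger, checkpoint and inner kinetochore assemblies, with GPNA in blue, BenSer in red, 95% counting intervals on the merged reads as bars and the control level as the line at 100. Subunits of the NDC80 complex lie between 58.4% and 68.3% with BenSer and those of the MIS12 complex between 79.9% and 86.8%. CENPC, CENPP, CENPQ and CENPT have BenSer intervals that cross 100.

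The chromosomal passenger complex, PLK1 and the shugoshins, which correct wrong attachments and guard cohesion, had the lowest median of the groups with either compound, -0.64 with BenSer and -0.24 with GPNA over 7 genes. With BenSer 4 were 1.5-fold lower and all 7 intervals were below the control. CDCA8 (borealin), of the part that targets the passenger complex to the centromere, had 38.9 and 40.5 CPM in the control columns, 31.3 and 31.8 in those with GPNA, and 21.2 and 21.5 in those with BenSer. The 3 groups were separate, with CDCA8 at 53.7% of the control with BenSer (50.1 to 57.6) and 79.4% with GPNA (74.3 to 84.98). AURKB, the kinase of the complex, had 16.5 and 18.4 CPM in the control columns, 15.04 and 16.3 in those with GPNA, and 10.2 and 9.42 in those with BenSer, or 56.3% (50.6 to 62.5). BIRC5 (survivin), the subunit that reads a histone mark at the centromere, had 66.2 and 67.1 CPM in the control columns, 60.9 and 56.5 in those with GPNA, and 42.5 and 41.6 in those with BenSer. INCENP, the scaffold, was at 70.4% with BenSer (67.4 to 73.5) and 84.6% with GPNA. The summed CPM of the 4 subunits was 63.9% of the control with BenSer and 85.1% with GPNA.

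PLK1, a kinase with several roles at the kinetochore and the spindle poles, had 46.6 and 44.6 CPM in the control columns, 38.5 and 34.8 in those with GPNA, and 26.5 and 31.5 in those with BenSer. The BenSer columns of PLK1 differed by more than counting error, and its difference was -0.76 or -0.52 when 1 column was left out, the latter short of 1.5-fold. SGOL1, a shugoshin that protects cohesin at the centromere until anaphase, was at 71.2% with BenSer and 82.5% with GPNA. SGOL2, its paralogue, had 53.8 and 55.9 CPM in the control columns, 59.4 and 58.4 in those with GPNA, and 43.3 and 41.7 in those with BenSer. SGOL2 was thus above the control with GPNA (107%, 102 to 113) and below it with BenSer (77.5%, 73.4 to 81.9).

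CENPJ carries a centromere name and codes for a protein of centriole assembly. It had 22.1 and 23.6 CPM in the control columns, 23.3 and 24.6 in those with GPNA, and 17.4 and 18.5 in those with BenSer, at 105% with GPNA (96.6 to 114) and 78.7% with BenSer (72.3 to 85.6).

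The comparisons above share the control libraries, so shared directions between them are not independent. Taken directly against GPNA, BenSer was lower by a median of -0.39 (-0.01 over 19056 genes tested), 3 genes were 1.5-fold lower (0.813% of all genes) and 38 had an interval below the GPNA level (20.7% of all genes). The 3 were AURKB (62.6% of the GPNA level, 56.3 to 69.6), MAD2L1 (64.1%, 59.6 to 69.1) and ZWINT (66.5%, 64.5 to 68.5). These calls are on the log2(CPM + 1) scale. As CPM ratios, SPC25 (62.8%), CENPH (64.8%) and CENPI (66.3%) were also below the share of ZWINT, but they missed the call. The interval included the GPNA level for CENPB, CENPC, CENPO, CENPQ and CENPT. The doses of 1 mM and 10 mM differed, so this is not a comparison at a matched dose.

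The 43 genes were also split by features that their choice did not use. In 36 genes with a RefSeq promoter entry (matched by symbol, or by synonym for SGOL1, SGOL2 and CENPJ), a CHR was found in the 250 bases before the start in 9, which is 25%, against 13.8% of 10871 tested genes with an entry. The 9 were CENPA, CENPC, SPC25, ZWINT, BUB1B, CDC20, INCENP, CDCA8 and PLK1. A CCAAT box was found in 22 genes (61.1%, against 41.2%), and E2F letters (TTTCCCGC, TTTCGCGC, TTTGCCGC or TTTGGCGC) in CENPA and MIS12 (5.56%, against 5.27%). Both strands were searched, and TTCGAA reads the same on either. When the 50 bases after the start were included, a CHR was found in 20 genes (55.6%, against 15.9%).

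With BenSer the median difference was -0.63 for the 9 genes with a CHR and -0.43 for the 27 without. Over all tested genes with a promoter entry, it was -0.04 with a CHR and -0.03 without. The 9 genes also had a higher median control level, at 45.6 CPM against 19.997 CPM for the 27. Whether the level accounts for the gap between the 9 and the 27 was not tested. The 8 genes with both a CHR and a CCAAT box had a median of -0.57, from -0.87 for CDCA8 to -0.05 for CENPC, while the 14 with a CCAAT box only had -0.44 and the 13 with neither had -0.37. The genes with neither ran from NUF2 (-0.74) to CENPT (-0.11), so the ranges overlapped widely. These classes depend on the window: with the 50 bases after the start included, NUF2, NDC80, SKA1, SKA3 and CENPO also held a CHR, and the median was -0.54 for the 20 genes with a CHR and -0.34 for the 16 without. The 7 genes without an entry (CENPH, CENPL, CENPM, KNTC1, BUB3, TTK and BIRC5) had -0.57. With GPNA the medians were -0.19 with both motifs and -0.11 with neither.

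**Figure D4:**
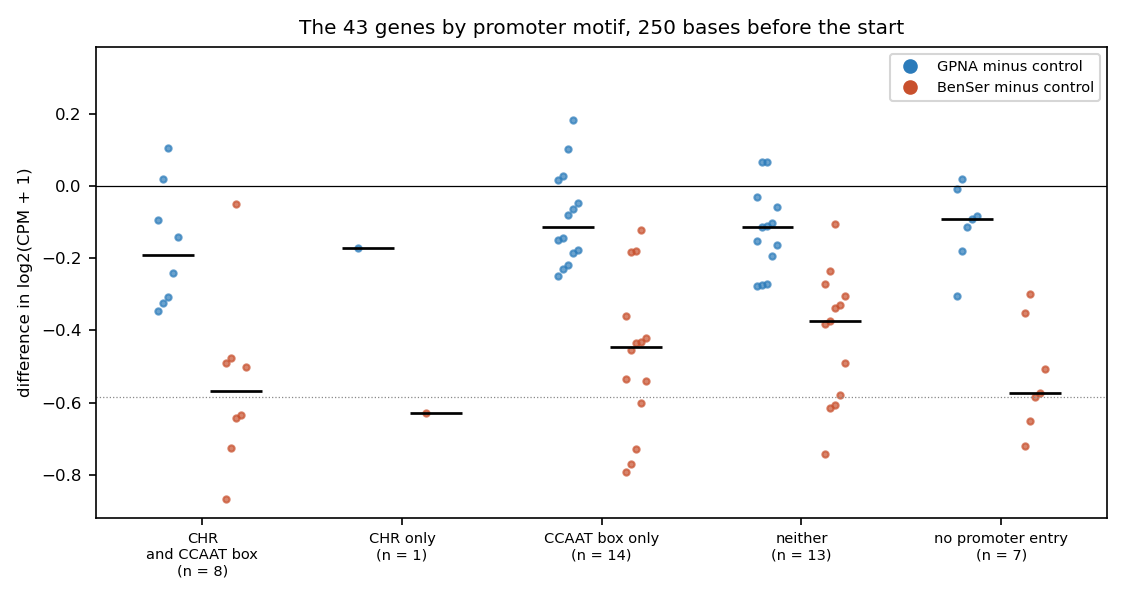
Differences from the control on the log2(CPM + 1) scale for the 43 genes, grouped by the motifs found in the 250 bases before the start, with 1 point per gene, GPNA in blue, BenSer in red, bars at the medians and the dotted line at 1.5-fold lower. The BenSer medians are -0.57 with both motifs, -0.44 with a CCAAT box only and -0.37 with neither, and the points of the groups overlap.

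Of the genes, 11 are in the G2/M list of the Seurat package (CENPA, NDC80, NUF2, CENPE, CENPF, BUB1, TTK, CDC20, AURKB, BIRC5 and CDCA8) and none is in its S list. The 11 had a median of -0.61 with BenSer, with 6 at least 1.5-fold lower, and the other 32 had -0.43, with 8. Across the 43 genes the difference with BenSer went with the control CPM at a Spearman's rho of -0.38 on the log2(CPM + 1) scale and -0.26 as percent of the control. With exon length, rho was 0.26 on the log2(CPM + 1) scale and 0.34 as percent of the control. These values describe genes of the same libraries, and a pseudocount of 1 makes differences of low genes smaller. Of 9 genes with under 10 CPM in the control 1 was 1.5-fold lower with BenSer, and of 34 with more, 13 were.

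For comparison, 56 other genes of these structures, of anaphase and of the spindle were taken by name in 5 lists. Among all 18976 genes tested with BenSer, 4896 intervals were below the control and 3455 above it. The 13 other kinetochore genes had a median of -0.20 with BenSer and -0.07 with GPNA, with 9 intervals below the control and 1 above. Among them CASC5 (KNL1, the platform on which checkpoint proteins assemble) was lowest at -0.56, and MAD1L1 (MAD1, the partner that presents MAD2) was highest at 0.19. MAD1L1 had 26.7 CPM in the control and 30.5 with BenSer, 114% of the control, while MAD2L1 was at 56.5%. The 4 genes that deposit CENP-A had a median of -0.42 with BenSer and -0.11 with GPNA, with OIP5 the highest at -0.17 and with 3 intervals below the control. The 11 other mitotic kinase and spindle genes had a median of -0.57 with BenSer and -0.17 with GPNA, with 5 genes 1.5-fold lower and 10 intervals below the control. TRIP13, an ATPase that remodels MAD2, was the lowest of these at -0.86 (15.4 CPM with BenSer, 28.9 in the control), and BORA, a cofactor with which AURKA activates PLK1, was the highest at -0.18.

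**Figure D5:**
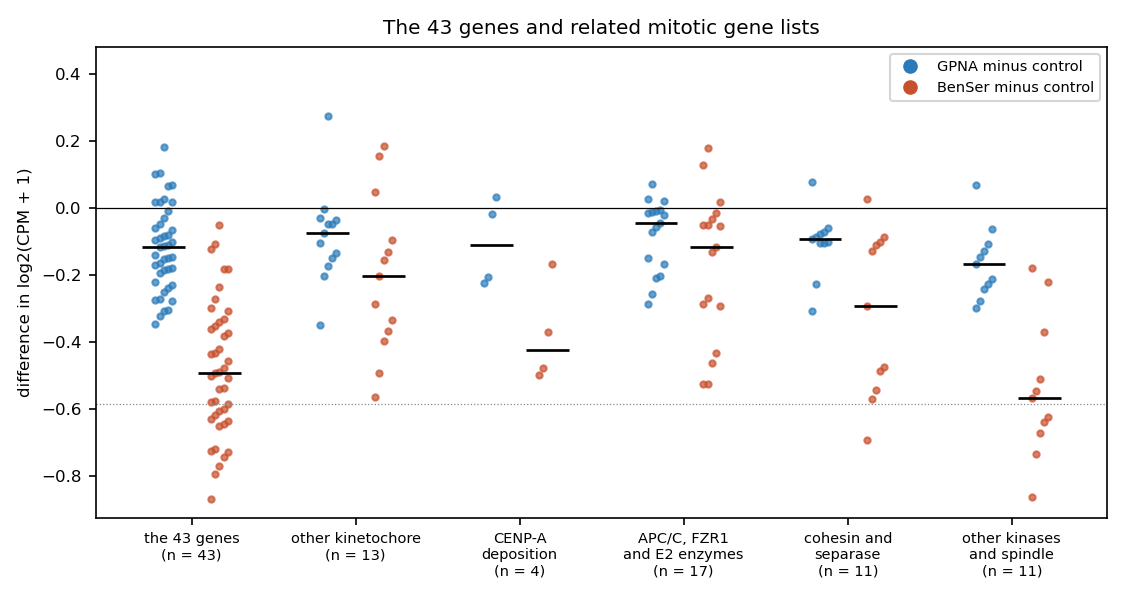
Differences from the control on the log2(CPM + 1) scale for the 43 genes and 5 lists of related mitotic genes, with 1 point per gene, GPNA in blue, BenSer in red, bars at the medians and the dotted line at 1.5-fold lower. With BenSer the medians run from -0.12 for the anaphase-promoting complex list to -0.57 for other kinases and spindle genes, with the 43 genes at -0.49.

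Some values could hold reads of other genes. Besides CENPA and BUB1B, 10 genes (CENPL, CENPN, CENPO, CENPP, CENPT, SPC24, MIS12, ZWILCH, PLK1 and SGOL2) share exon positions with a protein-coding gene on the other strand, and whether the counting used strand is not given in the sources used here. Pseudogenes are named for 11 (CENPC, CENPI, CENPN, CENPP, SKA2, BUB1, BUB3, MAD2L1, CDC20, AURKB and SGOL1). On GRCh37, the build of the study, the genes shown with their promoters lie at chr1:38158153-38175391 (CDCA8), chr1:43824652-43828874 (CDC20), chr16:23688977-23701688 (PLK1), chr10:58116988-58121034 (ZWINT), chr4:68334480-68411221 (CENPC) and chr16:67862060-67881714 (CENPT). The values are reads per gene, with exons and introns of a gene not given apart.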

How the data were processed

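Total RNA of PC-3 cells was sequenced from 6 labelled libraries, 2 per group. The authors prepared stranded, paired-end libraries, trimmed the reads and aligned these by TopHat2 against hg19 (GRCh37.p13), and the submitters' processing notes also name Bowtie2, HTSeq 0.6.2p2 and DESeq. The 2 deposited tables hold CPM, made by the authors from reads per gene and the library total, in columns headed as counts. Within a tolerance of 0.01 all values were multiples of 1 read, so reads were recovered. The study's exact tests are described as using 4 replicates. Each table holds 4 columns per group, and the labels name libraries for columns 1 and 2, so 8 of 16 column entries were not used. The authors' own fold changes, average CPM, p-values and false discovery rates were not used.

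Columns 1 and 2 of a group agreed close to sampling noise and were counted as 1 sample. Group means were compared as differences in log2(CPM + 1) where either group had a mean of 5 reads or more, called at 1.5-fold, with exact Clopper-Pearson 95% intervals of the ratio on merged reads. Tests were limma 3.58.1 on log2(CPM + 1) and, with the recovered reads, DESeq2 1.42.0 and edgeR 4.0.16 (R 4.3.3), with Benjamini-Hochberg adjustment. They enter the columns as 2 samples and compare libraries, with p-values that measure only the spread between columns. The scripts were tested on simulated data. Other scalings, pseudocounts, filters and thresholds were tried, and each column was left out in turn.

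The 43 genes and the related lists were chosen by name with earlier results of these data known. Every one of the 43 is named, and of each related list the genes with the highest and lowest difference with BenSer, apart from results that are not reported here; UBE2C, ANAPC15, SMC1A, SMC3, RAD21, CDCA5, PTTG1, STAG2, PDS5A and CDC27 were named after their values were seen. Gene positions are from GENCODE lifted to GRCh37, promoters from RefSeq (GRCh38.p14), and G2/M and S lists from Seurat 5.3.0.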

Additional observations from a re-analysis of the deposited data

How the results depend on the processing

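The direction of all 3 medians held under each alternative tried, and no value of a single gene with an interval on one side of the control changed sign. With BenSer against the control, the median of the 43 genes was -0.54 and -0.37 at pseudocounts of 0.1 and 5 CPM. It was -0.45 with TMM or median-of-ratios scaling, and -0.52 to -0.47 without 1 column. Of the 43, 9 were 1.5-fold lower at a pseudocount of 5 CPM (102 of all 18976 genes). Without 1 column, 13 to 17 were (320 to 349 of all genes tested). At a looser threshold (a log2 difference of 0.32) 34 were lower (1961 of all genes), and 0 were at 2-fold (9 of all genes). With GPNA, the median was -0.091 at a pseudocount of 5 CPM, -0.076 with TMM and -0.078 with median-of-ratios scaling and -0.13 to -0.11 without 1 column, and 2 genes (515 of all 18828) passed the looser threshold. Against GPNA, the median with BenSer was -0.42 and -0.30 at pseudocounts of 0.1 and 5 CPM and -0.41 to -0.34 without 1 column. The count of 1.5-fold lower genes was 6 and 0 at those pseudocounts (1243 and 38 of all 19056 genes). Without 1 column it was 2 to 5 (176 to 190 of all genes tested). It was 26 at the looser threshold (1349 of all genes) and 0 at 2-fold (10 of all genes). The cause was not tested. A larger pseudocount shrinks differences by construction.

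The 1.5-fold calls of CENPE, PLK1, SKA3 and SPC24 with BenSer were lost, and those of CENPH, KNTC1, NDC80 and TTK gained, without some column (CENPH -0.66 to -0.37). With GPNA, 24 genes had an interval below the control, while tests between libraries called 18 (limma, 12.6% of all genes), 13 (edgeR, 8.25%), 11 (edgeR with the replicate block, 6.42%) and 8 (DESeq2, 2.84%) at an adjusted p under 0.05. The column 1 minus column 2 differences correlated between groups at 0.02 to 0.04 across genes. These differences are close to read sampling, so the correlations cannot show whether the numbers pair the libraries. The block left the BenSer count at 38 (15.9% of all genes). A CHR was found in 9 promoters, and in 20 with the 50 bases after the start. Depth limits CENPK, CENPM, CENPQ, CENPP and CENPW most, with a few CPM each.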

Other observations

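Further lists covered the machinery that ends the checkpoint and opens sister chromatids. Their interval counts stand beside 4896 below and 3455 above the control among all 18976 genes tested with BenSer. The 17 genes of the anaphase-promoting complex, its coactivator FZR1 and its ubiquitin-conjugating enzymes had a median difference of -0.12 with BenSer and -0.04 with GPNA on the log2(CPM + 1) scale, with 9 intervals below the control and 1 above it with BenSer. The lowest were UBE2S (-0.53; 92.4 CPM in the control and 63.9 with BenSer) and UBE2C (-0.52; 70.9 and 49.0 CPM), the enzymes that build the ubiquitin chains, and the highest was the subunit CDC26 (0.18). The subunit CDC27, the most abundant of the list by CPM, stood at 83.0% of the control with BenSer. None of the 17 was 1.5-fold lower on that scale (ANAPC15, at 1.58 CPM in the control, had 55.4% of its control CPM), whereas CDC20, the coactivator held by the checkpoint, was at 63.6%.

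The 11 genes of cohesin, its regulators and separase had a median of -0.29 with BenSer and -0.09 with GPNA, with 10 intervals below the control with BenSer. ESPL1, which codes for separase, the protease that cuts cohesin, was the lowest (-0.69; 26.2 CPM untreated, 22.3 after GPNA and 15.8 after BenSer) and the only one of these that was 1.5-fold lower. CDCA5 (sororin, which stabilises cohesion) was at 66.6% of the control with BenSer and PTTG1 (securin, the inhibitor of separase) at 71.0%. Of the cohesin ring, SMC1A was at 68.4%, SMC3 at 71.5% (67.6 to 75.6) and RAD21 at 81.6% (79.4 to 83.9). The ring's partner subunits STAG1 (102%) and STAG2 (93.2%) and the regulator PDS5A (94.1%) stood closer to the control.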
